A study of Homo sapiens with 45 samples.

Results

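The lamin B1 domains of HNRNPK-depleted cells were described by the 2 repressive histone marks that cover them, H3K9me3 and H3K27me3. Members were all domains in the authors' lamin B1 list for cells given HNRNPK siRNA, which holds 730 of the 8560 domains in the 7 lists of the series. No value of either mark was used to choose them. The marks came from the lists of the same cells, with 1996 domains of H3K9me3 and 1686 of H3K27me3. The 880 lamin B1 domains of control cells, divided by the control mark lists, served as the reference.

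The cells were HCT116, an established line of human colon cancer. They received nontargeting control siRNA or HNRNPK siRNA at 25 nM with the same transfection reagent, and were collected at 72 h; no other agent or allele separates the groups. Of the 45 samples, 3 lamin B1, 3 H3K9me3 and 2 H3K27me3 chromatin immunoprecipitation (ChIP) libraries came from depleted cells, and each antibody and siRNA has 1 domain list, so no value on domains has a replicate and none was tested. RNA was sequenced in 4 control and 4 knockdown libraries.

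The knockdown was partial. HNRNPK, the targeted gene, read 934, 967, 822 and 814 CPM (counts scaled to the library total and normalised by TMM) in control replicates 1 to 4 and 250, 223, 157 and 164 CPM after HNRNPK siRNA. All 4 knockdown libraries lay below every control library. On the log2 scale HNRNPK fell by 2.17 ± 0.06 (SE), with an adjusted p of 7.29e-15 (edgeR quasi-likelihood test, Benjamini-Hochberg adjustment). LMNB1, which encodes the protein that the lamin antibody binds, read 169, 191, 166 and 171 CPM in controls and 146, 147, 128 and 135 CPM after knockdown. Its groups did not overlap either, and it fell by 0.33 ± 0.05 on the log2 scale (SE; edgeR adjusted p = 4.22e-06). RNA libraries held 12107280 to 23633851 counts, and the read depth behind the domain lists is unknown. Of 9 colon epithelial markers, 6 were above 1 CPM in all 8 libraries, while VIL1, CDX1 and LGR5 were under 1 CPM in each. Their summed level was 2732 to 3155 CPM in controls and 4389 to 5269 CPM after knockdown. Summed fibroblast markers were at 44.2 to 73.8 CPM and 74.8 to 120 CPM (LUM at 0 in all libraries), leukocyte markers at 17.6 to 24.7 CPM and 21.3 to 25.9 CPM (CD3E at 0), and endothelial markers at 0.613 to 1.02 CPM and 1.44 to 3.28 CPM. The part of these levels in the RNA results was not tested.

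Lamin B1 is a filament protein of the nuclear lamina, the meshwork under the inner nuclear membrane, and chromatin that touches it forms lamina-associated domains that are mostly poor in genes and silent. H3K9me3 is written by enzymes such as SETDB1 and the SUV39H pair and is bound by HP1 proteins; it marks constitutive heterochromatin and the clusters of zinc finger genes. H3K27me3 is written by Polycomb repressive complex 2 and marks developmental genes that are kept silent. HNRNPK itself is an RNA-binding protein of the nucleus with roles in splicing and transcription.

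A promoter is shown for each mark class in which a lamin B1 domain could lie, from genes named below whose start site lay in that class. They were read from RefSeq (GRCh38.p14), run 5′ to 3′ on the gene's strand from 250 bases before to 50 bases after the start, and have each CG dinucleotide in capitals. ZNF426 (chr19:9538596-9538895, minus strand) lay under lamin B1 with H3K9me3 alone and holds 19 CG. ASTN1 (chr1:177164663-177164962, minus strand) lay under H3K27me3 alone and holds 20. MAN2B2 (chr4:6574939-6575238, plus strand) lay under both marks and holds 28. MORN1 (chr1:2391505-2391804, minus strand) lay under lamin B1 with neither mark and holds 36.
ZNF426: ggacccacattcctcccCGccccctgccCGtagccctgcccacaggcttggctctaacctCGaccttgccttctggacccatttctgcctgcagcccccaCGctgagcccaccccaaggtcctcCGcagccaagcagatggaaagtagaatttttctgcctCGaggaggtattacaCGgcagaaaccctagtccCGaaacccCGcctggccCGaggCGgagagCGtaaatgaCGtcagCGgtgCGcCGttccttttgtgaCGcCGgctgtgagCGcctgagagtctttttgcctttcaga
ASTN1: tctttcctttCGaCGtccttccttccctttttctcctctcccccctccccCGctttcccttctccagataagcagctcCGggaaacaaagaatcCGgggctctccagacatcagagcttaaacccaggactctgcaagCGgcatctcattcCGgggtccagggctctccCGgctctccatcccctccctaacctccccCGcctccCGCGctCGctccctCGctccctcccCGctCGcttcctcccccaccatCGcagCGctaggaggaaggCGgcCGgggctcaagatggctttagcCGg
MAN2B2: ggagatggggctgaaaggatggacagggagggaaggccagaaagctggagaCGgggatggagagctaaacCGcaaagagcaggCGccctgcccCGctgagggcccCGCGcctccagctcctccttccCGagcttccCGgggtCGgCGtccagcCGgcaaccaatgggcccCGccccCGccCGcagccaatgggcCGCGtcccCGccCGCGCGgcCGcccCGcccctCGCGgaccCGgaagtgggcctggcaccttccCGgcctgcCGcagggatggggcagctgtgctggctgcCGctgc
MORN1: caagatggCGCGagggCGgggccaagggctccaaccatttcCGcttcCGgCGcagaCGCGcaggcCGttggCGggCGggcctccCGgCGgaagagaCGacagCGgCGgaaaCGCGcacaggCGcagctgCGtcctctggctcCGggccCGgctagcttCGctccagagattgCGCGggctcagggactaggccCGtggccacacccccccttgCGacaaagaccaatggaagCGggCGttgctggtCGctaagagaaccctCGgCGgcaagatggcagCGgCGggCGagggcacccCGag

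Nearly all lamin B1 length in depleted cells carried a mark, and most of it carried H3K9me3. The 730 domains covered 684 Mb. Of this length, 67.8% (464 Mb) lay in H3K9me3 domains alone, 16.5% (113 Mb) in H3K27me3 domains alone, 12.3% (84.3 Mb) in domains of both marks and 3.40% (23.3 Mb) in neither. The rest of the genome spanned by the lists looked different in the same cells, with 8.11%, 22.8%, 2.28% and 66.8% in the same 4 classes. Seen from the marks, 70.7% of the length with H3K9me3 alone and 60.9% of that with both marks lay in lamin B1 domains, against 17.3% of the length with H3K27me3 alone.

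Control cells had more lamin B1 length, 923 Mb, and a larger part of it had H3K27me3 alone. There, H3K9me3 alone took 51.9%, H3K27me3 alone 33.9%, both marks 8.00% and neither mark 6.20%. The control lamin B1 list reaches down to a lower score, 0.267 against 0.477. With the control and depleted list of each antibody held to the higher of their lowest scores, the control shares were 55.4%, 32.0%, 8.27% and 4.35%. The share of all H3K27me3-alone length that lay in lamin B1 domains was 42.7% in control and 17.3% in depleted cells. For H3K9me3 alone these shares were 84.3% and 70.7%, over 568 Mb and 656 Mb of such length.

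Of the lamin B1 length in depleted cells, 656 Mb lay in control lamin B1 domains as well, here called kept, and 28.4 Mb did not, here called gained. Kept length was 70.0% H3K9me3 alone, 16.0% H3K27me3 alone, 12.5% both marks and 1.59% neither. Gained length was 45.2% neither mark, 28.2% H3K27me3 alone, 17.2% H3K9me3 alone and 9.33% both marks. H3K9me2, listed only for control cells, covered 97.9% of the lamin B1 length with H3K9me3 alone, 89.2% of that with both marks, 68.6% of that with H3K27me3 alone and 5.41% of that with neither mark. The unmarked length was also nearly free of the control H3K9me2 domains.

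**Figure D1:**
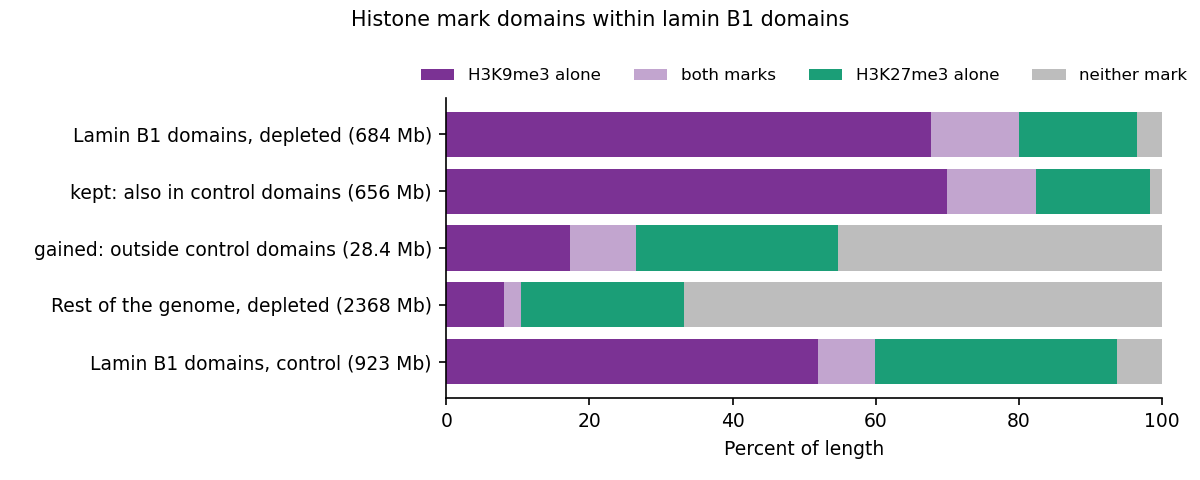
Percent of length (x axis) in H3K9me3 alone, both marks, H3K27me3 alone and neither mark, for depleted lamin B1 domains, their kept and gained length, the rest of the genome and control lamin B1 domains (rows, 1 list each and no error). H3K9me3 alone fills 67.8% of the depleted and 51.9% of the control bar, and neither mark fills 45.2% of the gained bar.

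Domain by domain, the classes differed in size and score. The score is the authors' value for each domain, its unit is not given in the sources used here, and it ranges from 0.477 to 3.11 over the 730 domains. In 306 domains at least 50% of the length had H3K9me3 alone; their median length was 1193 kb and their median score 1.35. In 225 domains most length had H3K27me3 alone, with a median of 240 kb and a score of 0.601. Both marks led in 84 domains (520 kb, score 0.938) and neither mark in 94 (140 kb, score 0.575), and 21 had no class at 50%. H3K9me3-led domains were thus the longest and highest scoring by median, and unmarked ones the shortest and lowest. The 306 H3K9me3-led domains held 74.7% of all lamin B1 length.

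Both marks touched 363 of the 730 domains (49.7%), and 200 of the 214 domains of at least 1 Mb. H3K27me3 covered 259 domains wholly (35.5%) and H3K9me3 113 (15.5%). No H3K9me3 base was found in 257 domains and no H3K27me3 base in 181. Neither mark had a base in 71. Domains without any control lamin B1 base numbered 119, of which 65 were led by neither mark, 26 by H3K27me3 alone, 17 by H3K9me3 alone and 7 by both marks.

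Single domains show the 4 kinds. The longest, chr5:17270001-31270000, spanned 14.0 Mb at a score of 1.13, and 99.8% of it had H3K9me3 and 2.43% H3K27me3. The highest score, 3.11, belonged to chr12:127175001-130820000, with H3K9me3 over 92.2% and H3K27me3 over 24.4%. The longest domain with at least 80% H3K27me3 alone was chr1:176330001-177935000, 1.61 Mb at a score of 1.21, wholly in H3K27me3 with no H3K9me3 base, and it holds ASTN1. With both marks over at least 80%, the longest was chr2:132455001-133795000 (1.34 Mb, score 1.16), which had H3K9me3 over 88.4% and H3K27me3 over 98.5%. The longest unmarked domains were chrX:122445001-123120000 (675 kb, score 0.731, 88.9% unmarked) and chr5:97565001-98205000 (640 kb, score 0.646, wholly unmarked). Both of these lay wholly in control lamin B1 domains, unlike most unmarked domains.

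Chromosomes differed in their mixture. H3K9me3, with or without H3K27me3, covered from 55.6% of lamin B1 length on chromosome 12 to 97.9% on chromosome 21. H3K27me3 covered from 4.16% on chromosome 19, which carries the largest clusters of zinc finger genes, to 48.7% on chromosome 1. Unmarked length was 24.1% on chromosome 22, 19.1% on chromosome 17 and 13.4% on chromosome 12, and under 8% on each of the others.

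The marks were layered by depth within a domain. In the outermost 50 kb of all domains, H3K27me3 covered 64.7% and H3K9me3 33.3% of the length. Further in, H3K27me3 covered 52.4% at 100 to 250 kb from the nearest edge, 27.4% at 250 to 500 kb and 0.863% beyond 1000 kb, while H3K9me3 covered 67.2%, 88.2% and 99.6%. Since short domains have no deep part, the same was computed in the 104 domains of at least 2 Mb alone. There H3K27me3 went from 73.3% in the outermost 50 kb to 35.1% at 100 to 250 kb and 0.863% beyond 1000 kb, and H3K9me3 from 38.2% to 85.1% and 99.6%. Control cells had a similar layering: in 117 domains of at least 2 Mb, H3K27me3 went from 76.4% to 50.2% and 2.76%. At 100 to 250 kb the H3K9me3 share was 62.9% in control and 85.1% in depleted cells.

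**Figure D2:**
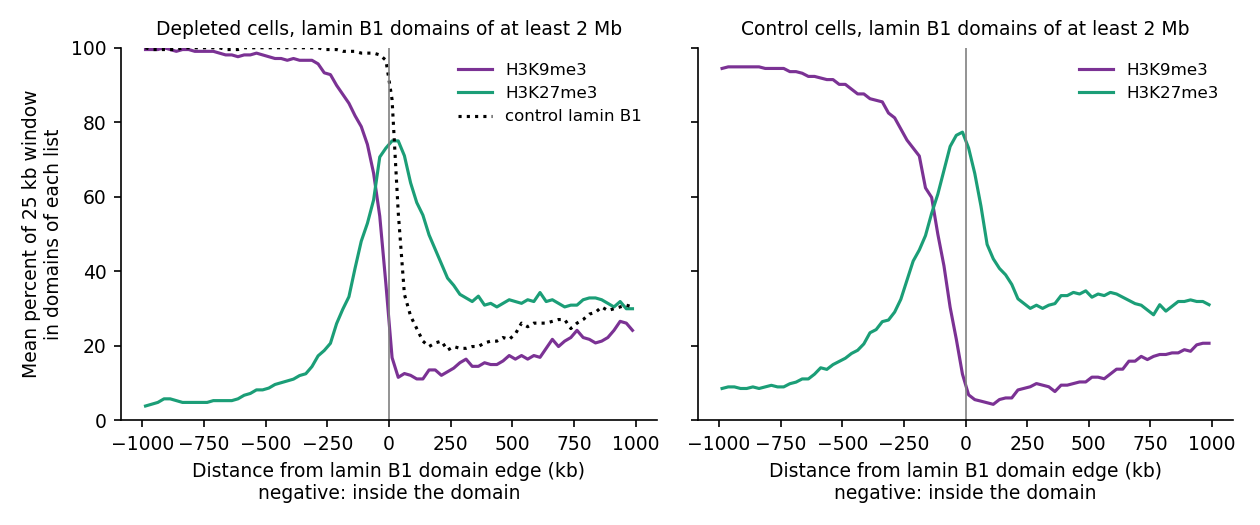
Mean percent of each 25 kb window covered by H3K9me3, H3K27me3 and control lamin B1 domains (y axis) against distance from the edge of lamin B1 domains of at least 2 Mb (x axis, kb, negative inside), in depleted (left) and control cells (right). H3K27me3 peaks at the edge and H3K9me3 fills the inside, reaching 99.6% of the depleted domains beyond 1000 kb.

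H3K27me3 domains lay across the edges rather than ending at them. Of 1459 lamin B1 edges (chromosome ends left out), 949 (65.0%) had H3K27me3 on the 5 kb steps at both sides. From those edges the H3K27me3 domain reached a median of 330 kb into the lamin B1 domain and 210 kb out of it. In control cells 66.0% of 1758 edges lay within H3K27me3, with medians of 455 kb inward and 110 kb outward. H3K9me3 spanned 22.9% of edges in depleted and 9.50% in control cells. Among the 306 H3K9me3-led domains, 129 had H3K27me3 just outside both edges, 70 outside a single edge and 107 outside neither. Edges that lay inside a control lamin B1 domain numbered 1094, and 75.1% of these had H3K27me3 just outside, against 36.4% of the other 365.

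Lamin B1 edges lay near H3K9me3 edges of the same side, meaning start with start or end with end. Within 25 kb of such an edge were 268 of the 1459 edges (18.4%), while 3.73% of all positions on the 5 kb grid lie that close, a ratio of 4.92. The H3K9me3 edge was inside the lamin B1 domain in 136 of these, outside in 87 and at the same position in 45. H3K9me3 edges of the opposite side were within 25 kb of 1.99% of lamin B1 edges, below the 3.73% of grid positions. H3K27me3 edges were within 25 kb of 4.25% of lamin B1 edges on the same side and 3.43% on the opposite side, where 2.99% of grid positions are. In control cells the same-side shares were 8.08% for H3K9me3 (1.69% of the grid) and 11.1% for H3K27me3 (3.15% of the grid).

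The classes are defined by mark cover, so the shares of aligned edges by class partly follow from the grouping and are given as a description. Among edges of H3K9me3-led domains 32.0% lay within 25 kb of a same-side H3K9me3 edge, and among those led by both marks 32.7%. The share was 2.00% in H3K27me3-led and 1.06% in unmarked domains. For same-side H3K27me3 edges it was 7.33% in H3K27me3-led, 5.36% in both-mark, 2.78% in H3K9me3-led and 0.532% in unmarked domains. In 53 domains both edges lay within 25 kb of the edges of 1 H3K9me3 domain, from 80 kb to 14.0 Mb in length. They include chr6:63915001-69645000 (5.73 Mb, score 1.98) and chr14:24700001-30245000 (5.55 Mb, score 1.45). With H3K27me3 such a match was found in 3 domains, the longest chr12:98740001-100015000 (1.28 Mb, score 1.19).

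**Figure D3:**
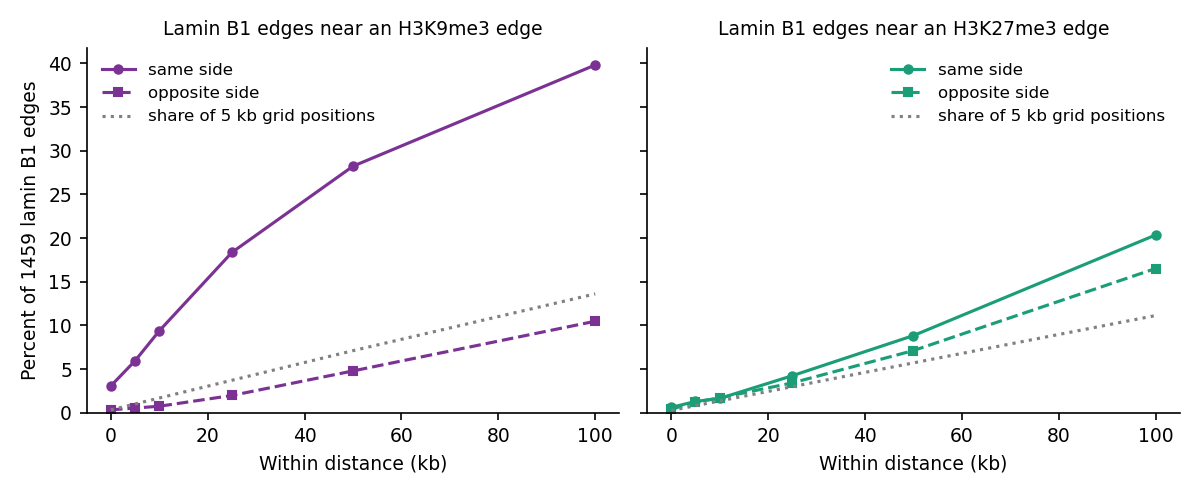
Percent of 1459 lamin B1 edges of depleted cells (y axis) that lie within a given distance in kb (x axis) of an H3K9me3 edge (left) or an H3K27me3 edge (right), on the same or the opposite side, with the share of 5 kb grid positions as a dotted line. The same-side H3K9me3 line reaches 18.4% at 25 kb and 39.8% at 100 kb, and the same-side H3K27me3 line 4.25% and 20.4%.

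Lamin B1 scores went with H3K9me3 scores. Over the 473 domains that overlap H3K9me3, the lamin B1 score and the length-weighted mean score of the overlapping H3K9me3 had a Spearman correlation of 0.69. Over 549 domains that overlap H3K27me3 the correlation with that mark's score was -0.21. With the share of a domain in H3K9me3 it was 0.47, and with the share in H3K27me3 -0.16 (n = 730). These are descriptions over domains of 1 cell line: 32 H3K9me3 and 76 H3K27me3 domains touch more than 1 lamin B1 domain, and how input was used in the scores is not given in the sources used here. Lamin B1 score also went with domain length, with a Spearman correlation of 0.78.

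Long domains separate these relations. Among the 214 domains of at least 1 Mb, where score and length had a correlation of 0.10, the correlation with the H3K9me3 score was 0.68 (n = 210). In the same domains the correlation with the share in H3K9me3 was -0.09, with the share in H3K27me3 0.13 and with the H3K27me3 score 0.25 (n = 204). By Spearman correlation, 3 of the 4 relations thus changed sign from that over all domains. Pearson correlations in these long domains were 0.18 and -0.11 with the H3K9me3 and H3K27me3 shares, which kept their signs. With the H3K27me3 score the Pearson value was 0.22, against -0.21 over all domains. In quartiles of lamin B1 score within these long domains, the median H3K9me3 score was 1.03, 1.38, 1.60 and 1.93, while H3K9me3 covered 88.0%, 92.9%, 89.3% and 91.2% of the length. In control cells the correlation of the 2 scores was 0.51 over 405 domains, and 0.23 over 237 domains of at least 1 Mb.

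Over all 730 domains, the cover itself shifted with score. From the lowest to the highest quartile of lamin B1 score, H3K9me3 covered 24.9%, 41.6%, 80.3% and 91.3% of the length and H3K27me3 64.1%, 52.4%, 30.7% and 20.6%. By length, H3K9me3 went from 29.1% in the 226 domains under 200 kb to 94.9% in the 104 of at least 2 Mb. H3K27me3 did not follow a single order with length: it covered 48.5% of domains under 200 kb, 63.6% at 200 to 500 kb, 58.8% up to 1 Mb, 39.6% at 1 to 2 Mb and 10.7% above that. Taken from the side of the marks, 15.9%, 23.8%, 40.7% and 88.6% of H3K9me3 length lay in lamin B1 domains from the lowest to the highest quartile of H3K9me3 score. For H3K27me3 these shares were 13.9%, 20.8%, 30.3% and 26.4%. Of 463 H3K9me3 domains that touch lamin B1, 410 had at least 50% of their length in it. These 410 had a median score of 1.19 and a median length of 843 kb. The 1533 domains with no lamin B1 base had medians of 0.671 and 90 kb.

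**Figure D4:**
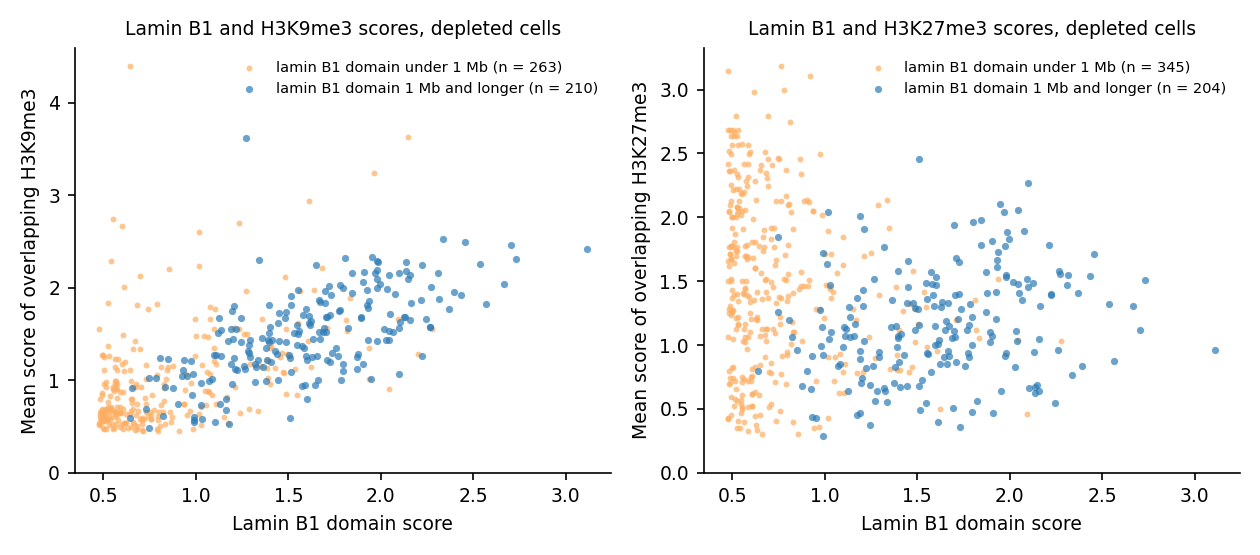
Lamin B1 domain score (x axis) against the mean score of overlapping H3K9me3 (left, n = 473) or H3K27me3 (right, n = 549) in depleted cells (y axis), 1 point per lamin B1 domain, coloured by length below or above 1 Mb. Points run from lower left to upper right on the left, with a Spearman correlation of 0.69 and of 0.68 in the long domains; on the right it is -0.21.

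Genes were sparse in marked lamin B1 length and dense in unmarked length. Genes with 50% or more of their length inside a domain, by RefSeq positions, were assigned to it, and 1362 of 20037 protein-coding genes were in lamin B1 domains. That is 1.99 genes per Mb, against 7.89 per Mb outside. Length with H3K9me3 alone held 1.47, H3K27me3 alone 1.86, both marks 1.68 and neither mark 12.1 genes per Mb. The unmarked class thus held 283 of the 1362 genes in 23.3 Mb. Gene midpoints numbered 4.67 per Mb in the outermost 50 kb of domains and 0.851 per Mb beyond 1000 kb. These values pool domains of all lengths, and only the 104 domains of at least 2 Mb reach the deeper part. Gene density by depth within long domains alone was not computed.

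Gene families were placed unevenly. Of 517 numbered ZNF genes, most of which encode DNA-binding zinc finger proteins, 124 were in lamin B1 domains (24.0%, against 6.80% of all protein-coding genes), and 118 of these had H3K9me3 alone. Olfactory receptor genes had 134 of 390 there (34.4%), of which 100 had H3K9me3 alone and 25 both marks. Keratin-associated protein genes, which encode hair proteins, had 32 of 94 in lamin B1 domains, 31 of them with H3K9me3 alone. The largest shares among these families were in small ones: GABA-A receptor subunit genes had 12 of 19 (63.2%) and cadherin genes 11 of 23 (47.8%), with 10 and 9 under H3K9me3 alone. None of the 39 genes of the HOX clusters, 87 histone genes, 39 beta defensin genes or 22 UDP glucuronosyltransferase genes was in a lamin B1 domain, and 1 of 83 ribosomal protein genes was. Solute carrier genes, which encode membrane transporters, had 25 of 398 there, with 10 unmarked, 8 under H3K27me3 alone and 3 under H3K9me3 alone.

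With all mark classes pooled, the median CG count of the 300-base promoters was 13 in 1035 lamin B1 promoters and 22 in 14807 others, and 10 or more CG were found in 58.8% and 73.8%. In promoters with H3K9me3 alone under lamin B1 the median was 10 (n = 549), or 14 when olfactory receptor genes were left out. Promoters were matched for 81.2% of lamin B1 genes and 84.4% of those under H3K9me3 alone; in the other classes the match was under 80%, so no value is given and the pooled difference was not shown to hold in them. Chromosome 8 was not used for promoters.

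Most genes under marked lamin B1 were too low in RNA to be tested. Among protein-coding genes, 317 of 1362 (23.3%) passed the filter on low counts, with 7.93% under H3K9me3 alone, 19.0% under H3K27me3 alone, 6.34% under both marks and 69.6% under neither, against 64.1% outside lamin B1 domains. A gene at the filter's limit that passed through its higher group had to differ, so the counts below describe the genes tested and not all genes of a class.

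Across all 13933 genes tested, the adjusted p was under 0.05 for 71.5%, with 35.5% higher and 36.1% lower after knockdown (edgeR quasi-likelihood test with library kit as a term). In lamin B1 domains 244 of 347 tested genes were called, 92 higher and 152 lower, with a median log2 fold change of -0.16 against -0.004 over all genes. Requiring a log2 fold change of 1 or more in size as well left 34 higher and 43 lower, where 7.47% and 8.28% of all tested genes were higher and lower by that rule. Under H3K9me3 alone, 29 of 65 genes were higher and 10 lower (median 0.22). Under H3K27me3 alone, 16 of 43 were higher and 8 lower (median 0.14), and under both marks 8 of 10 were higher and 2 lower (median 0.82). With neither mark 35 of 212 were higher and 125 lower, with a median of -0.36. Whether the classes differ was not tested. Counting each mark with or without the other, H3K27me3 genes were 25 higher and 10 lower of 56; among genes with a mean of at least 50 counts they were 9 higher and 10 lower of 30. For H3K9me3 these counts were 39 and 14 of 83, and 29 and 13 of 60.

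Within each marked class, the genes split by whether they also lay in control lamin B1 domains. Under H3K27me3 alone, 15 of 25 tested genes that lay by 50% or more in control lamin B1 were higher and 0 were lower (median 0.97), while of the other 18 genes 1 was higher and 8 were lower (median -0.25). Under H3K9me3 alone, 29 of 57 kept genes were higher and 4 lower (median 0.37), and of the 8 others 0 were higher and 6 lower (median -0.54). Nearly all unmarked genes, 201 of 212, lay outside control lamin B1, with 34 higher and 118 lower; the 11 kept ones were 1 higher and 7 lower. Over all tested genes 35.5% were higher and 36.1% lower. The kept H3K27me3 genes include ASTN1 and ANKFN1, which passed the low-count filter only through their knockdown libraries. The split was not repeated among genes with a mean of at least 50 counts, so an effect of the filter on it was not tested. This split was added after the values were seen. Genes said below to have risen or fallen had an edgeR adjusted p under 0.05. Those named by rank in a mark class were chosen for groups that do not overlap. Where such separation is mentioned for them, it repeats that rule and is no separate support.

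**Figure D5:**
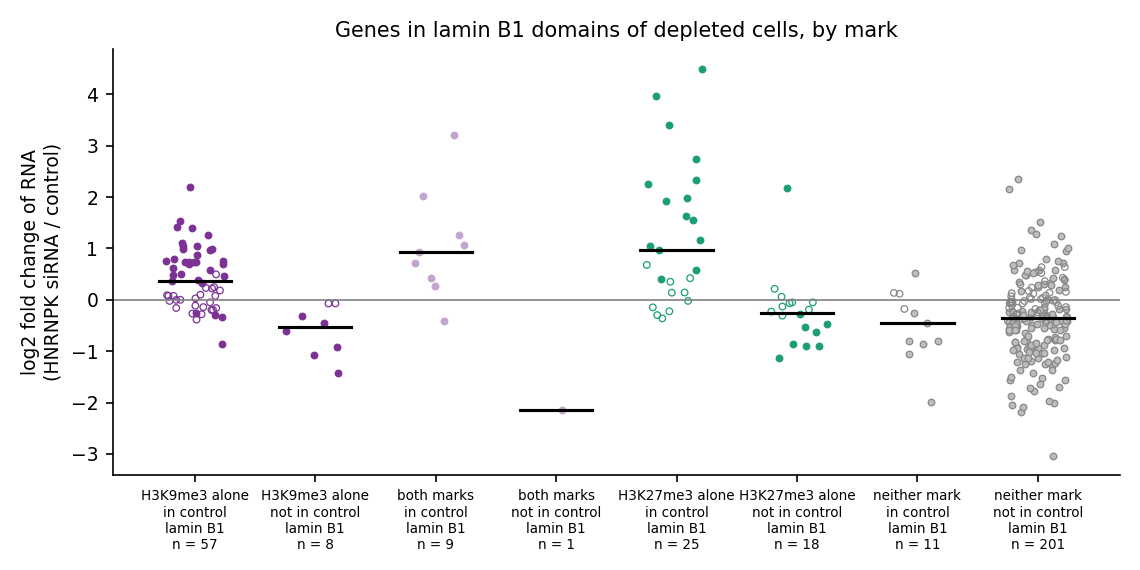
Log2 fold change of RNA after HNRNPK siRNA (y axis) for tested genes in lamin B1 domains of depleted cells, by mark class and by whether at least 50% of the gene lay in control lamin B1 domains (x axis, n genes given). Filled points have an adjusted p under 0.05 and bars are medians. Kept genes under H3K27me3 alone have a median of 0.97, and some of them passed the low-count filter only through knockdown libraries. The 201 unmarked genes outside control lamin B1 have a median of -0.36.

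Zinc finger genes made up most of the H3K9me3 group. All 33 tested ZNF genes in lamin B1 domains lay under H3K9me3 alone and in control lamin B1 domains; 22 were higher and 0 lower, where 35.5% and 36.1% of all tested genes were, and their log2 fold changes ran from -0.20 to 1.53 with a median of 0.59. ZNF426 read 4.21, 2.96, 4.40 and 4.93 CPM in controls and 11.2, 10.8, 10.8 and 10.3 CPM after knockdown (log2 fold change 1.41 ± 0.14 SE, adjusted p = 4.41e-08, edgeR). The knockdown values were all above the control values and closer together. ZNF614 and its neighbour ZNF350, 2 zinc finger genes in 1 lamin B1 domain (chr19:51915001-52115000, score 0.609), both rose (log2 fold changes 1.26 ± 0.11 and 1.39 ± 0.18 SE, edgeR adjusted p = 1.27e-08 and 1.69e-06). ZNF614 read 5.57, 6.35, 7.39 and 6.29 CPM in controls and 17.2, 14.5, 13.9 and 15.2 CPM after knockdown. ZNF350 went from a mean of 2.42 ± 0.83 to 6.16 ± 0.96 CPM (SD, n = 4 each), with groups that did not overlap; an antisense gene overlaps it and the strand counted is not given in the sources used here. Zinc finger genes are close in sequence, so reads may be split between copies.

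The genes under H3K9me3 alone that fell lay mostly outside control lamin B1. ARSA, the lysosomal arylsulfatase A, read 14.4, 11.0, 17.6 and 17.4 CPM in controls and 4.42, 5.05, 7.08 and 6.02 CPM after knockdown (log2 fold change -1.42 ± 0.12 SE, adjusted p = 4.18e-09, edgeR). CTBP1, a transcriptional corepressor, fell from a mean of 81.2 ± 16 to 38.6 ± 6.6 CPM, and 0% of either gene body lay in control lamin B1. The pseudogene ABCA11P, 50.4% of whose body lay in a lamin B1 domain, fell by 0.92 on the log2 scale; it overlaps ZNF721.

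Under H3K27me3 alone, the genes that rose did so from low levels. ASTN1, which encodes astrotactin 1, a membrane protein of developing neurons, read 0.830, 1.38, 1.07 and 0.493 CPM in controls and 3.82, 4.61, 3.12 and 3.63 CPM after knockdown. Its groups did not overlap, and it rose by 1.99 ± 0.24 on the log2 scale (SE; edgeR adjusted p = 5.98e-07). ANKFN1 rose from a mean of 0.771 ± 0.30 to 3.52 ± 0.51 CPM, and both genes lay wholly in control lamin B1. The lowest control libraries of ASTN1 and ANKFN1, at 0.493 and 0.376 CPM, lay below the limit of the low-count filter. Both genes thus passed the filter only through their knockdown libraries. Their calls and separation are descriptions and no separate support for a rise. LGALS9, which encodes the sugar-binding protein galectin 9, rose from 1.29 ± 0.34 to 5.85 ± 0.52 CPM. It was the only gene that rose among the 18 outside control lamin B1, its start lay outside the lamin B1 domain, and near-identical copies of it exist, so its counts are uncertain.

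Those that fell under H3K27me3 alone lay outside control lamin B1. MVK, mevalonate kinase of sterol synthesis, read 35.6, 28.0, 29.4 and 30.4 CPM in controls and 13.7, 12.3, 15.5 and 14.6 CPM after knockdown (log2 fold change -1.14 ± 0.10 SE, adjusted p = 4.23e-09, edgeR). Every knockdown library was below every control. The start of MVK lay under lamin B1 with neither mark. ADRA2C, an adrenergic receptor gene, fell from 11.9 ± 2.3 to 6.27 ± 0.33 CPM. TERT, the catalytic subunit of telomerase, was named after its values were seen; it fell by 0.46 ± 0.11 on the log2 scale (SE; edgeR adjusted p = 0.00111), with 8.02 to 12.5 CPM in controls and 5.73 to 9.36 CPM after knockdown, ranges that overlap.

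Under both marks, 2 transcription factor genes of a single 2.08 Mb lamin B1 domain (chr3:69475001-71555000, score 1.32) rose. MITF, a regulator of pigment cells, read 2.96, 2.88, 1.87 and 1.92 CPM in controls and 6.00, 5.05, 4.55 and 4.53 CPM after knockdown. FOXP1, a forkhead factor, went from 6.11 ± 1.1 to 11.6 ± 1.2 CPM, and ZC3H12B, of a family of RNA-cutting proteins, from 4.35 ± 1.2 to 10.6 ± 1.1 CPM. In all 3 genes the groups did not overlap, as the rule for naming them required. They are placed under both marks by their bodies and not by their starts. The start of MITF lay under lamin B1 with H3K27me3 alone. Those of FOXP1 and ZC3H12B lay outside lamin B1 domains, under H3K27me3 alone. MAN2B2, a lysosomal mannosidase, went the other way, from 67.0, 58.8, 71.3 and 70.1 CPM to 13.9, 14.3, 14.7 and 17.9 CPM. It fell by 2.14 ± 0.07 on the log2 scale (SE; edgeR adjusted p = 3.14e-14), its lamin B1 domain had a score of 0.508, and 0% of its body lay in control lamin B1.

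The genes that fell in unmarked lamin B1 length included an enzyme gene of the H3K9me3 pathway. KDM4B, a demethylase that removes H3K9me3, read 68.1, 39.6, 90.5 and 83.3 CPM in controls and 14.5, 13.8, 20.8 and 19.4 CPM after knockdown (log2 fold change -2.02 ± 0.13 SE, adjusted p = 7.52e-11, edgeR). All knockdown values lay below the lowest control. Its lamin B1 domain, chr19:4995001-5125000, covered 70.5% of the gene and had no overlap with the start site. MORN1 fell from 4.59 ± 1.0 to 1.10 ± 0.33 CPM. MGMT, a DNA repair methyltransferase, fell from 9.38 ± 2.1 to 2.36 ± 0.50 CPM. Unlike the others, it lay wholly in control lamin B1, and its lamin B1 domain (score 1.71) was not an unmarked one. MGMT is placed in the unmarked class by its body and not by its start, which lay under lamin B1 with H3K9me3 alone.

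Among the unmarked genes that rose, PKDREJ, a polycystin family gene, went from 1.05 ± 0.41 to 5.34 ± 0.68 CPM and CD4, a T cell co-receptor gene, from 1.59 ± 0.26 to 3.38 ± 0.61 CPM. PKDREJ also passed the low-count filter only through its knockdown libraries, with 0.493 CPM in its lowest control. Its call is a description. SNORD134, a small nucleolar RNA gene, read 1.41 ± 0.68 and 6.24 ± 1.1 CPM and lies inside FASN, so its reads cannot be told apart from those of its host. FASN, fatty acid synthase, was named after its values were seen: it read 878 to 1423 CPM in controls and 383 to 795 CPM after knockdown (log2 fold change -1.17 ± 0.11 SE, adjusted p = 1.32e-08, edgeR). AKT1 and ERBB2, a growth signalling kinase and a receptor kinase chosen in the same way, had log2 fold changes of -0.47 and -0.37.

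Genes that build the lamina and the marks were read against the 35.5% higher and 36.1% lower among all tested genes. Of 20 tested lamina and nuclear envelope genes, 5 were higher and 12 lower after knockdown. Among the 12 lower, LMNA, the A-type lamin gene, went from a mean of 443 to 258 CPM. SUN2, of the inner nuclear membrane, went from 103 to 53.7 CPM, and NUP210, of the nuclear pore, from 256 to 95.5 CPM. Among the 5 higher, NUP153 went from 164 to 258 CPM and LEMD3 from 49.3 to 67.0 CPM. TMPO, TPR and TOR1A were not called. Of 17 tested H3K9 methylation genes 5 were higher and 6 lower, and of 20 tested H3K27 methylation genes 5 were higher and 9 lower; the shares called in these 2 lists lie near the 71.5% of all tested genes. The H3K9 methyltransferase gene SETDB1 had a log2 fold change of -0.03 (adjusted p = 0.692, edgeR) and KDM4A, a demethylase gene, had a value of 0.88 (adjusted p = 1.12e-11). EZH2, SUZ12 and EED, which form the core of Polycomb repressive complex 2, had log2 fold changes of 0.02, -0.01 and 0.0009 with adjusted p of 0.778, 0.909 and 0.990 (edgeR). KDM4B was the only gene of these lists that lay in a lamin B1 domain of depleted cells.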

How the data were processed

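Members, gene lists and comparisons were chosen with earlier results of these data known. ChIP reads were handled with fastp 0.23.2, Bowtie2 2.5.1 and deepTools 3.1.3 on hg38, and RNA reads with STAR 2.7.1a and featureCounts of Subread 2.0.6, per the submitters' processing notes. Each deposited domain list gives a start, an end, a score and a length on steps of 5 kb; the score is the authors' own, and its unit, the domain caller, the use of input and the pooling of replicates are not given in the sources used here. The gene annotation and the strand counted are not given either. The deposited gene counts are whole numbers per gene name.

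Domains were compared by base. A lamin B1 base belonged to 1 of 4 mark classes. Edge distances were taken to the nearest edge of the same or the opposite side, and the share of 5 kb grid positions within the same distance was the reference. RefSeq positions (GRCh38.p14) were found for 13481 of 13933 tested genes. Counts were tested in edgeR 4.0.16 (filterByExpr, TMM, quasi-likelihood test, library kit and siRNA as terms) under R 4.3.3, with Benjamini-Hochberg adjustment and a threshold of 0.05; CPM values are TMM-normalised, apart from the summed cell type markers, which use library totals. Nothing in the labels says that libraries came from separate cultures, so p-values measure the spread between these libraries, which may be technical. In data simulated for this comparison over 13933 genes, 200 genes were given a log2 fold change of 1 in size. Of these, 186 were recovered, and 7 others were called. Recovery of smaller log2 fold changes, or with 71.5% of genes called as in the real libraries, was not tested. Domain steps were tested on made domains.

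Replicates 1 and 2 were made with the TruSeq kit and 3 and 4 with the Ligation kit. Libraries of the same number deviated together, with r across genes of 0.1004, 0.4246, 0.3365 and 0.2653 for numbers 1 to 4. Kit was not removed from these deviations, so they cannot tell pairing by number from a shared kit. The labels name no pairing. The main fit used kit, and pairing by number was run as an alternative.

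Named genes were HNRNPK, LMNB1 and, in each mark class, the called genes ranked 1 to 3 by rise and by fall, given groups that do not overlap and a mean log2 CPM of 1 or more; fewer met the rule where fewer are named, except that 1 gene is not reported here. Named domains were the longest and highest-scoring ones overall and by class. Alternatives were other lengths, scores, merging, distances, filters, normalisations, DESeq2 1.42.0, each kit, each library left out and other gene placements. The control shares at a shared lowest score, the split by control lamin B1, the alternatives for unmarked genes and promoters without olfactory receptors were added after the data were seen. The 2 Scramble libraries were not used. Scripts ran in Python 3.11.15 with numpy 2.4.6, pandas 2.3.3, scipy 1.17.1 and matplotlib 3.10.9.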

Additional observations from a re-analysis of the deposited data

Results flagged for a closer look

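In 2 of 46 groups of 4 libraries (23 named genes, each in control and knockdown cells), 1 library stood apart from the others by Dixon's criterion at 95%; chance flags about 1 in 20 groups. LMNB1 read 191 CPM in control replicate 2, above the 166 to 171 CPM of the other controls. ZNF350 read 7.59 CPM in HNRNPK siRNA replicate 3, above the 5.57 to 5.87 CPM of the other knockdown libraries. The effect of the knockdown differed between the kits in 0 of the 23 genes at an adjusted p under 0.05 (edgeR interaction term). The share over all tested genes is not given here, and each kit has only 2 libraries per group. Most of these genes were also chosen for groups that do not overlap over both kits. The count therefore does not show that the kits had no effect.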

How the results depend on the processing

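Shares of lamin B1 length were judged against Wilson 95% intervals over 730 domains, which cover the number of domains alone. These intervals treat a share of length as a count of independent domains. They serve as a fixed yardstick and do not measure the spread of a share. With the upper part of the scores, H3K9me3 alone moved to 77.5%, H3K27me3 alone to 11.6% and both marks to 7.18%; the other composition values stayed in their intervals. Edge shares follow the distance by construction. At 10, 50 and 100 kb they were 9.39%, 28.2% and 39.8% for same-side H3K9me3, 1.64%, 8.84% and 20.4% for same-side H3K27me3, 0.754%, 4.80% and 10.5% for opposite-side H3K9me3 and 1.71%, 7.13% and 16.5% for opposite-side H3K27me3. With the upper part of the scores they were 25.2%, 2.88%, 0.412% and 1.92% in that order, and with domains of at least 100 kb opposite-side H3K9me3 was 0.678%. In domains of at least 1 Mb the Spearman correlation of the lamin B1 score changed sign with the H3K9me3 share (-0.0910), the H3K27me3 share (0.13) and the H3K27me3 score (0.25). Given length, the partial rank correlation was 0.25 with the H3K9me3 share, 0.52 with the H3K9me3 score and -0.0419 with the H3K27me3 score. Pearson correlations over all domains were 0.57 and -0.29 with the shares and 0.64 with the H3K9me3 score. In domains of at least 1 Mb those with the shares kept their signs, at 0.18 and -0.11. The cause was not tested.

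Called genes numbered 77 in lamin B1 domains, 16 with H3K9me3, 20 with H3K27me3 and 38 lower unmarked when the log2 fold change had to be 1 or more in size, which counts fewer by construction. With any overlap, H3K9me3 genes numbered 86 and H3K27me3 genes 93. H3K27me3 genes also numbered 56 by DESeq2, 69 without a filter and 19 at a mean of at least 50 counts, where 30 were tested. Leaving out each library gave 236 to 250, 46 to 53, 32 to 38 and 121 to 129. With the replicate block, that is with pairing by number in place of kit, they were 242, 50, 35 and 126, and no named gene changed its call. All 363 values of the 23 named genes under the other fits run kept their direction and call. Apart from HNRNPK and LMNB1, these genes were chosen from the same libraries for their calls, size of change and separation. Their stability therefore largely follows from the choice and is no separate support. Domain lists have no replicates and no known depth, which limits every share above.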
